A study of Mus musculus with 2 samples.

Results

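Claudins, occludin and their partners seal the tight junctions of the lung epithelium. Their transcripts were followed in whole mouse lungs at embryonic day 18, in lungs homozygous for the hypomorphic Nmyc9a allele and in wildtype lungs. The genes were Cldn1, Cldn3, Cldn4, Cldn6, Cldn7, Cldn18, Ocln, Tjp1 and F11r, which make 9 of the 18193 genes named on the arrays. Members were taken as every probe set that the platform annotation assigns to 1 gene with one of these symbols, 18 probe sets in all. A probe set is a group of short array probes read together as a single signal. Total RNA from pooled lungs of each genotype was hybridised to 1 Affymetrix array, so the Nmyc9a group held 1 array and the wildtype group held 1 array. The labels give no strain, sex or number of lungs per pool. With 1 array per group no test is possible, no difference below has a replicate check, and a pool shows nothing of the spread between animals.

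Tight junctions are belts of membrane strands that close the gap between neighbouring epithelial cells near the luminal surface. Claudins polymerise into the strands and set which ions and how much water pass between cells, occludin and its relatives organise the strands, and scaffold proteins such as ZO-1, the product of Tjp1, tie them to the actin skeleton. In the fetal lung these seals hold the secreted liquid in the future airspaces, and near birth the epithelium reverses from secretion to absorption. Mycn encodes the transcription factor N-Myc, which the growing distal lung epithelium requires.

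The deposited values were linear signals without a unit, with the same trimmed mean of 150 on both arrays, and the arrays had a Pearson correlation of 0.919 across measured probe sets, which are not independent replicates. A factor of 0.977 on the array labelled Nmyc9a centred the log2 ratios, and signals under a floor of 49.3 were treated as not measured or raised to the floor before a ratio was taken. The only internal error in the data was the disagreement between probe sets of a gene, whose pooled SD over 5671 genes was 0.40 in log2 units (1.32-fold). This SD is pooled over all signal levels and holds nothing of the spread between arrays or pools. A ratio beyond it therefore does not show a difference between genotypes. Mycn itself read 84.8 on the array labelled Nmyc9a and 66.3 on the wildtype array by its brightest probe set, and 85.4 (Nmyc9a) and 51.1 (wildtype) by another. A further Mycn probe set was under the floor on both arrays, at 33.9 (Nmyc9a) and 19.7 (wildtype). The targeted transcript did not read lower by its measured probe sets, but the wildtype signals were close to the floor of 49.3. It is not known here whether the Mycn probes cover the changed sequence, so Mycn could not check the label on which every direction below rests. Lung markers were bright, among them Sftpc at 8964 on the array labelled Nmyc9a and 8639 on the wildtype array.

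Most of the claudins chosen here, and occludin, read lower on the array labelled Nmyc9a, while Cldn3 and Tjp1 did not. By the brightest probe set of each gene, 7 of the 9 genes had a log2 ratio below 0 (Nmyc9a over wildtype) and 2 were above it. The median of the 9 was -0.41, against -0.09 for all 12600 measured genes, of which 58.8% lay below 0. At a size rule of 1.5-fold, Cldn6 and Ocln were lower, 2 of 9, and no gene was higher. Over all measured genes 9.71% were that much lower and 6.32% that much higher. The 2 of 9 lower genes make 22.2%, a larger share than 9.71%, but the count is small and was not tested. None of the 9 reached 2-fold, which 1.38% of measured genes did in the lower direction. The median of the 7 strand proteins among the members (the 6 claudins and occludin) was -0.51, and that of Tjp1 and F11r together was -0.08. That -0.51 is the value of the brightest Cldn1 probe set, and the other measured Cldn1 probe set stood at -0.02.

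**Figure D1:**
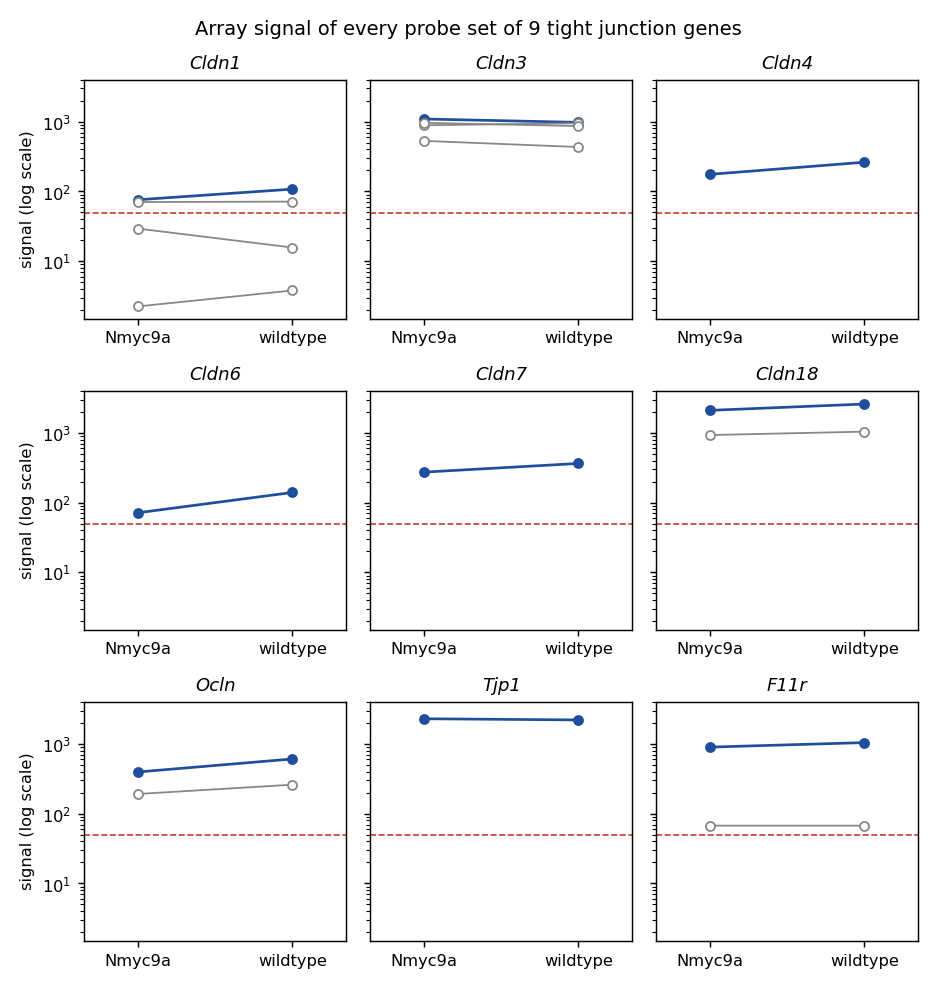
Signal of every probe set (log axis, no unit) on the array labelled Nmyc9a (left) and the wildtype array (right), 1 panel per gene, with the brightest probe set filled, the others open and the signal floor of 49.3 dashed. Lines climb toward wildtype for Cldn4, Cldn6, Cldn7 and both Ocln probe sets, and lie nearly level for Tjp1. Heights of different probe sets cannot be compared with each other.

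Cldn6, a claudin of embryonic epithelia that is little expressed in adult tissues, had the lowest ratio of the group. Its only probe set read 71.5 on the array labelled Nmyc9a and 139.6 on the wildtype array, a log2 ratio of -0.96 (1.95-fold lower). Of all measured genes, 1.60% had a ratio as low or lower. Both signals lay above the floor, but the one on the array labelled Nmyc9a was close to it. The distance was larger than the SD of 0.40 between probe sets of a gene. That SD leaves out the spread between arrays, and a single probe set gives no agreement of its own. Raising the floor to the 60th percentile of signals turned the ratio into a bound of -0.47 or lower.

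Ocln, which encodes occludin, was measured by a pair of probe sets that both read lower. The brighter read 397 on the array labelled Nmyc9a and 609.6 on the wildtype array, a log2 ratio of -0.62 (1.54-fold lower). The other read 192 on the array labelled Nmyc9a and 260.8 on the wildtype array, a ratio of -0.44. Ocln was the member just past the 1.5-fold rule, and Cldn4, at 1.49-fold lower, was the one just short of it. Cldn4, a claudin that limits sodium passage in cultured kidney cells, read 176 on the array labelled Nmyc9a and 262.5 on the wildtype array by its only probe set, a ratio of -0.58. Of all measured genes, 8.38% had a ratio as low as that of Ocln or lower, and 10.1% one as low as that of Cldn4.

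Cldn1 and Cldn7 stood between these and the median gene. The brightest Cldn1 probe set, for a claudin that seals the epidermis and is also made in airways, read 76 on the array labelled Nmyc9a and 108 on the wildtype array, a log2 ratio of -0.51. A second measured Cldn1 probe set read 70.4 (Nmyc9a) and 71.5 (wildtype), a ratio of -0.02, so the gene's own probe sets disagreed by 0.49 and the direction of Cldn1 rests on 1 of them. The remaining pair of Cldn1 probe sets lay under the floor on both arrays, at 29.3 and 2.25 on the array labelled Nmyc9a against 15.7 and 3.8 on the wildtype array. Cldn7, a claudin of the lateral membrane in airway and other epithelia, read 273 on the array labelled Nmyc9a and 364 on the wildtype array, a ratio of -0.41. That was about the size of the SD between probe sets of a gene.

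Cldn18 and Cldn3 differed less than Cldn6, Ocln and Cldn4, and not in the same direction. Cldn18, the main claudin of alveolar epithelium, which limits leak of fluid across it, read 2102 on the array labelled Nmyc9a and 2591 on the wildtype array, a log2 ratio of -0.30. Its other probe set read 930 (Nmyc9a) and 1041 (wildtype), a ratio of -0.16, so both were lower by less than the SD between probe sets. Cldn3, which type 2 alveolar cells make, read 1094 on the array labelled Nmyc9a and 978.7 on the wildtype array by its brightest probe set, a ratio of 0.16. A second read 964 on the array labelled Nmyc9a and 866.8 on the wildtype array (0.15), and another 531 (Nmyc9a) and 433.7 (wildtype), a ratio of 0.29. The last read 889 (Nmyc9a) and 952.8 (wildtype), a ratio of -0.10. Thus 3 of the 4 Cldn3 probe sets were higher and 1 was lower, over a range of 0.39, and no ratio exceeded the SD of 0.40. All 4 end in a or x in their names, which mark probes shared by several transcripts or prone to cross-hybridise.

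The plaque and adhesion genes lay near the median gene. Tjp1, the ZO-1 scaffold, read 2300 on the array labelled Nmyc9a and 2214 on the wildtype array, a log2 ratio of 0.06 from 1 probe set. F11r, which encodes the junctional adhesion molecule JAM-A, read 902 on the array labelled Nmyc9a and 1047 on the wildtype array, a ratio of -0.21. A dim second F11r probe set read 67.4 on each array, a ratio of 0.00. Across the 16 measured probe sets of all 9 genes, 11 had a ratio below 0 and 5 above it. Of these 16 probe sets 2 were at least 1.5-fold lower and none was that much higher, against 8.29% lower and 14.4% higher over 27191 measured probe sets.

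**Figure D2:**
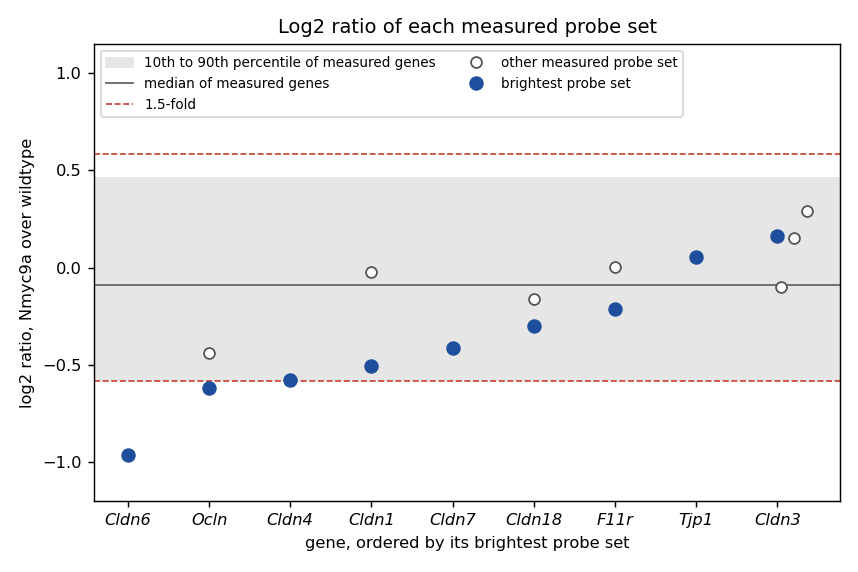
Log2 ratio (Nmyc9a over wildtype) of each measured probe set, by gene in order of the brightest probe set (filled; other probe sets open), with the 10th to 90th percentile of 12600 measured genes shaded (-0.58 to 0.46), their median as a grey line and the 1.5-fold sizes dashed. Cldn6 lies apart from the others at -0.96, Ocln and Cldn4 lie beside the 1.5-fold line, and the probe sets of Cldn1 are 0.49 apart.

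Promoter windows of Cldn6, Ocln, Cldn4 and Cldn3 are printed because the first 3 had the lowest ratios and the last, which neighbours Cldn4 on the chromosome, did not share them. Each runs from 250 bases before to 50 bases after a RefSeq transcript start (build GRCm38.p6), 5′ to 3′ on the gene's strand. They cover Cldn6 at chr17:23679115-23679414 (+), Ocln at chr13:100552449-100552748 (-), Cldn4 at chr5:134946885-134947184 (-) and Cldn3 at chr5:134985964-134986263 (+). Capitals mark CAGGTG or its reverse CACCTG, the E-box form bound by the Snail and Zeb repressors, which are known to silence several of these genes in cultured epithelial cells.
Cldn6: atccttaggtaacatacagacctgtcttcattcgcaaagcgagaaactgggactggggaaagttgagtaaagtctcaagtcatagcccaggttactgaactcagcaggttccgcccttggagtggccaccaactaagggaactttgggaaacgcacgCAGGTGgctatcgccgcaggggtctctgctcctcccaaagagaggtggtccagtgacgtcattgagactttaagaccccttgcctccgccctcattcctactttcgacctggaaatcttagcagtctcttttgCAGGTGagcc
Ocln: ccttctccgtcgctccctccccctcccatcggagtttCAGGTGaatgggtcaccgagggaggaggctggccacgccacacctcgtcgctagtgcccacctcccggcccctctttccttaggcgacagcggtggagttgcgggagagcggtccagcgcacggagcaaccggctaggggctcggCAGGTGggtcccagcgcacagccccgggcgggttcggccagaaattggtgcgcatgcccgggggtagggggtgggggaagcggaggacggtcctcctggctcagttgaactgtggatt
Cldn4: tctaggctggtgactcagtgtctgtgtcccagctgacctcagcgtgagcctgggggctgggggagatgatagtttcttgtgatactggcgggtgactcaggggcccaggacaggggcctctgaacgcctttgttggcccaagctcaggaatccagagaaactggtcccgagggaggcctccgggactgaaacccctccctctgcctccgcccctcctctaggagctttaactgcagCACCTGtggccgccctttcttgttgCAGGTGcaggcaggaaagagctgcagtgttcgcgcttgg
Cldn3: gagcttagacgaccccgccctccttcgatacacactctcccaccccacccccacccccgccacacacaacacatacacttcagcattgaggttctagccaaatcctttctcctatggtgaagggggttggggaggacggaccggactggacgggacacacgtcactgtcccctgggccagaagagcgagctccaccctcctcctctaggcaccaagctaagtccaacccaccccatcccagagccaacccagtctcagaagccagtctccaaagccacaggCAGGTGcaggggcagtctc

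These letters stand at -93 and 41 from the transcript start in Cldn6, at -213 and -68 in Ocln, at -14 and 12 in Cldn4, and at 32 in Cldn3, counted to the first base of the motif with the start as 1. RefSeq gave 12 windows for the 9 genes, and 7 of the 12 held the motif on either strand, against 20.2% of all 32851 windows. The 7 windows belonged to 6 genes, Cldn3, Cldn4, Cldn6, Cldn7, F11r and Ocln. It was not found in the windows of Cldn1, Cldn18 and Tjp1. The 2 Ocln windows overlap, and the one printed is that with more of the sites. They share the site at -213 of the printed window, which stands at 8 from the start of the other. CAGGTG is also the spelling of many exon ends, so a match is a description of letters and not a binding site. The Myc E-box CACGTG, which reads the same on both strands, was in 0 of the 12 windows and in 7.15% of all windows. The grainyhead-like motif AACCGGTT, for a family that maintains epithelial junction genes, was in 0 of the 12 and in 0.146% of all. Among genes with the Snail-type letters the log2 ratios ran from -0.96 (Cldn6) to 0.16 (Cldn3), and among those without from -0.51 (Cldn1) to 0.06 (Tjp1).

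Regulators of epithelial genes differed little between the arrays by the brightest probe set. Of 17 measured regulators of epithelial junction genes, 0 were 1.5-fold higher and 0 lower, with a median log2 ratio of -0.11. The list includes Esrp1 and Esrp2, which regulate splicing and not transcription. Snai1, a repressor of E-cadherin and claudins, read 197 on the array labelled Nmyc9a and 258.5 on the wildtype array, a ratio of -0.39, the lowest of the list. Zeb2, another repressor, was next at -0.28, with 3 of its 5 measured probe sets below 0 and 1 as high as 1.27. Grhl2, an activator of claudin and E-cadherin genes, read 415 (Nmyc9a) and 389.6 (wildtype), a ratio of 0.09, and the highest ratios were those of the epithelial Ets factors Ehf at 0.46 and Elf3 at 0.16. By the brightest probe set, Ehf was the only regulator with a ratio larger than the SD of 0.40, and its signals of 77.5 on the array labelled Nmyc9a and 56.3 on the wildtype array were close to the floor. Dimmer probe sets of other regulators went further, up to 1.27 for Zeb2, 1.11 for Zeb1 and 0.78 for Klf5.

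Other tight junction genes lay closer to the median gene, with the membrane proteins lowest among them. The difference from the claudins and occludin above was not tested. Of 36 measured genes in 3 lists (other claudins, other membrane proteins, and plaque and polarity proteins), 2 were at least 1.5-fold lower and 2 higher, and their median was -0.10. The membrane proteins had a median of -0.31 over 8 genes, of which 7 were below 0 and 1, Marveld2, was past 1.5-fold. Marveld2 encodes tricellulin, the relative of occludin at points where several cells meet, and is the chromosomal neighbour of Ocln. It read 57.9 on the array labelled Nmyc9a and 99.4 on the wildtype array, a ratio of -0.78. Jam3, a junctional adhesion molecule, stood at -0.54 as the next lowest, and both of its measured probe sets were lower. The highest ratios were those of the junctional adhesion gene Igsf5 at -0.23 and the endothelial adhesion gene Esam at 0.00.

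By the brightest probe set, Cldn2 and Cldn22 were the only tight junction genes at least 1.5-fold higher, and neither was after quantile normalization or loess, with the floor at its highest or with a pseudocount of 50. Dimmer probe sets of Pard3 and Cgn also passed that size, at up to 1.17 and 0.83. In the lower direction, dimmer probe sets of Crb3 and Cgnl1 passed 1.5-fold, at -0.76 and -0.66. Of 14 other claudins on the arrays, which are strand proteins too, 7 were measured. Of these 7, 2 were at least 1.5-fold higher and none was lower (median -0.06). Cldn22 read 93.7 on the array labelled Nmyc9a and 58.6 on the wildtype array (0.68), and Cldn2, a claudin that forms sodium and water pores, read 82.3 (Nmyc9a) and 52.1 (wildtype), a ratio of 0.66. Both wildtype signals were close to the floor, and of all genes with a mean signal between 49.3 and 123, 10.9% were 1.5-fold higher, against 2.57% of those above 291. The lowest were Cldn12 at -0.51 and Cldn15 at -0.14. Cldn5, the claudin of endothelium, read 955 on the array labelled Nmyc9a and 1023 on the wildtype array (-0.10). It is itself one of the 12 endothelial markers, none of which passed 1.5-fold. Cldn9, the neighbour of Cldn6, was among the 7 genes under the floor.

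Plaque and polarity genes had a median of -0.04 over 21 measured members, 1 of them lower and 0 higher. The lower one was Magi3, a scaffold of the junction, at 457 on the array labelled Nmyc9a and 778.2 on the wildtype array (-0.77), and its other probe sets reached -0.07. The related scaffold Magi1 stood at -0.54 but had probe sets on both sides of 0. Tjp3, the ZO-3 scaffold and a relative of Tjp1, had the highest ratio at 0.26, followed by the junctional exchange factor gene Arhgef2 at 0.18. Of 15 adherens junction and desmosome genes, 1 was higher and 1 lower (median -0.18). Nectin1, an adhesion receptor, read 455 on the array labelled Nmyc9a and 185.7 on the wildtype array (1.29). Dsp, the desmosome plaque protein, was next at 0.37, but only 1 of its 3 measured probe sets was above 0 and the lowest stood at -0.33. Ctnna1, the alpha-catenin that links cadherins to actin, stood at -0.66 and Nectin3 at -0.34, but another Ctnna1 probe set stood at 1.19. All 6 measured Nectin3 probe sets were below 0, the lowest at -1.57.

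**Figure D3:**
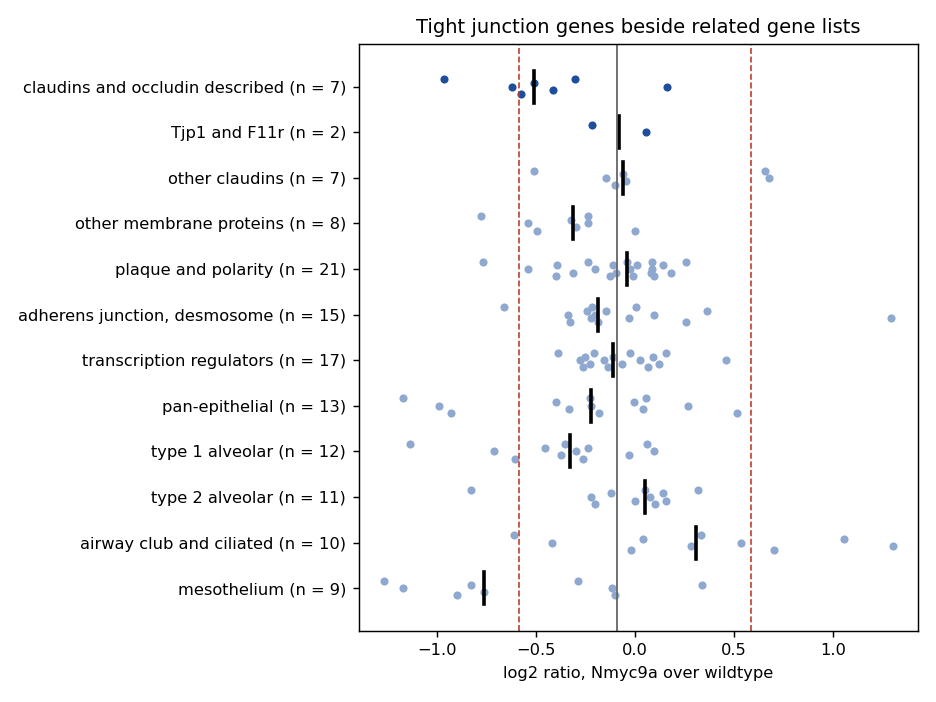
Log2 ratio (Nmyc9a over wildtype) of each measured gene by its brightest probe set, 1 row per gene list, with list medians as black bars, the median of all measured genes as a grey line and the 1.5-fold sizes dashed. The median of the claudins and occludin described (-0.51) lies left of those of the other junction lists (-0.31 to -0.04), which include the other claudins (-0.06). It lies right of that of mesothelium markers (-0.76). The row of transcription regulators also holds the splicing regulators Esrp1 and Esrp2.

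Markers of the cells that make these proteins also differed between the arrays. Of 13 measured pan-epithelial markers, 3 were at least 1.5-fold lower and none higher, their median was -0.22, and their summed signal was 8147 on the array labelled Nmyc9a and 10696 on the wildtype array. These 3 were keratins: Krt19, lowest at -1.17 and also in the mesothelium list, Krt7 at -0.99 and Krt8 at -0.93. They read 768 against 1728 in wildtype (Krt19), 770 against 1526 (Krt7) and 840 against 1596.5 (Krt8), most of the difference between the sums. Of the 13 markers, 4 were above 0. Cdh1, encoding E-cadherin, stood at -0.22 and the probe sets of Epcam disagreed (0.52 and -0.56). Of 12 type 1 alveolar markers 3 were lower and none higher (median -0.33, summed signal 22396 against 26864 in wildtype), Igfbp2 lowest at -1.13. Of 11 type 2 alveolar markers 1 was lower and none higher (median 0.05, summed signal 40746 against 41350 in wildtype). Of 10 airway markers 3 were higher and 1 lower (median 0.31, summed signal 17374 against 15498 in wildtype), with Ccdc39 and Scgb3a1 past 2-fold at 1.30 and 1.06.

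Centring on the epithelial markers, an alternative chosen after the data were seen, raised every log2 ratio by the same amount and left the spacing of the 9 genes as it was. Taken from the pan-epithelial median, Cldn6 stood at -0.74, Ocln at -0.40, Cldn4 at -0.35, Cldn1 at -0.28, Cldn7 at -0.19, Cldn18 at -0.08, F11r at 0.01, Tjp1 at 0.28 and Cldn3 at 0.38, so that F11r changed sign. Of the 9, 1 gene, Cldn6, was then 1.5-fold lower and none higher, beside 3.52% of all measured genes lower and 14.2% higher. In whole-lung RNA, fewer cells of a type and less RNA per cell cannot be told apart.

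Markers of cells other than lung epithelium differed as well. Of 9 measured mesothelium markers 5 were lower and none higher, with a summed signal of 2413 on the array labelled Nmyc9a and 4366.5 on the wildtype array, and Wt1 was under the floor. Aldh1a2 was past 2-fold at -1.27. Liver markers were higher in 5 of 8 measured genes and lower in 1, with a summed signal of 1462 on the array labelled Nmyc9a against 692 in wildtype, with 4 more under the floor. Skeletal muscle markers were higher in 3 of 6 and lower in none, with a summed signal of 935 against 494 in wildtype, also with 4 under the floor. Cell division genes were lower in 10 of 11 (median -0.89), and mesenchyme markers in 0 of 10. The part of these markers in the tight junction signals was not tested.

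The choice of scaling decided which members passed the size rule beside Cldn6. After quantile normalization Cldn1, Cldn4 and Cldn6 were past 1.5-fold (3 of 9, against 10.9% of all genes), and after loess on mean signal Cldn1 and Cldn6 were (2 of 9, against 9.78%), while Ocln stood at -0.50 and -0.46. Brighter genes had lower ratios in general, with a median of -0.19 for genes with a mean signal above 291 and 0.05 for those between 49.3 and 123. Under quantile normalization and loess, which act on such a slope, the bright members had higher ratios, Cldn3 at 0.39 and 0.38, Tjp1 at 0.28 in each, Cldn18 at -0.08 in each and F11r at 0.00 in each. By the value taken for each gene, Cldn4, Cldn6, Cldn7, Cldn18 and Ocln were below 0 in all 10 alternatives, and Cldn3 and Tjp1 were above 0 in the 9 that measured them. The second Cldn18 probe set was above 0 in 3 of 8 alternatives, at up to 0.06.

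**Figure D4:**
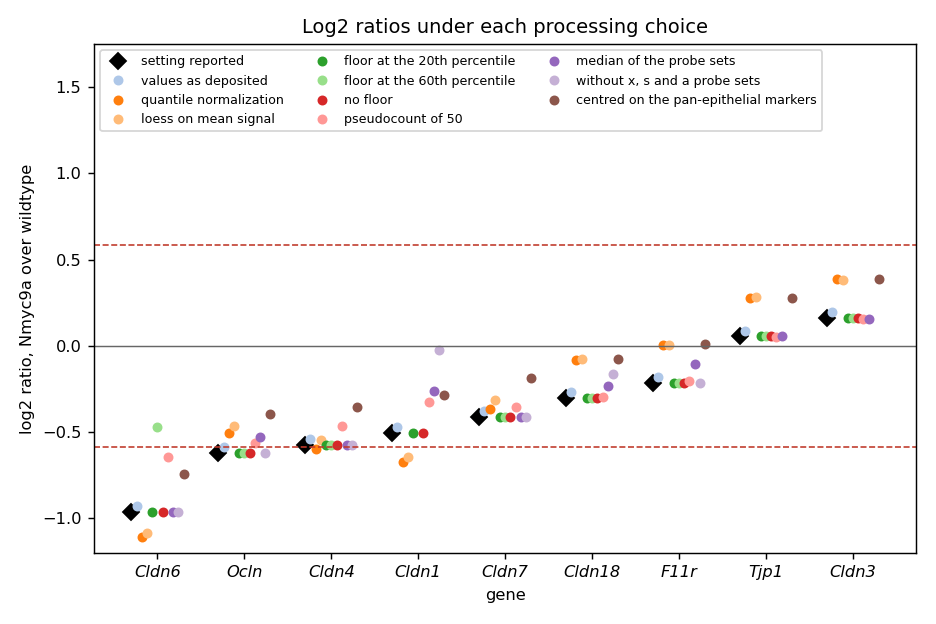
Log2 ratio (Nmyc9a over wildtype) of each gene as reported (black diamond) and under 10 alternatives (coloured points), with 0 as a grey line and the 1.5-fold sizes dashed. Cldn6 ranges from -1.11 to -0.47, Cldn1 from -0.67 to -0.02, and F11r is the only gene with points on both sides of 0.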

How the data were processed

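Total RNA was extracted with Trizol and an RNeasy kit, biotin-labelled and hybridised to Affymetrix mouse arrays, per the labels' protocols. The deposited values were a linear signal intensity for each of 45101 probe sets. Which software summarized the probes, and how background and scaling were handled, is not given in the sources used here.

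From these, 64 control probe sets were set aside and the array labelled Nmyc9a was scaled by 0.977, which set to 0 the median log2 ratio of probe sets with a mean signal reaching the floor. The floor was the 40th percentile of scaled signals, 49.3. A gene took its brightest probe set and was measured if the mean signal reached the floor, as for 12600 of 18193 genes. Names came from the platform annotation, and 34741 of 34945 with 1 gene symbol matched RefSeq genes of GRCm38.p6 by Entrez identifier. A further 932 named several genes and 9160 had no listed gene. No test was run, and no p-value is given. Genes were described by a 1.5-fold size rule. Every member was named with every probe set, and from each other junction list the 2 highest, the 2 lowest and all genes past 1.5-fold. Cell type markers were named only past 2-fold. Sftpc, Cdh1, Epcam, Krt7, Krt8, Cldn5, Grhl2, Zeb1, Klf5, Esrp1, Esrp2, Pard3, Cgn, Crb3 and Cgnl1 were added after their values were seen. The members and lists were chosen with earlier results of these data known. The number of arrays limits the precision. Computation used Python 3.11.15, pandas 2.3.3 and statsmodels 0.14.6, and the ratio step was tested on simulated data. Alternatives covered scaling, the floor, a pseudocount of 50, the choice of probe set and the size rule; centring on the pan-epithelial markers was added after the data were seen.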

Additional observations from a re-analysis of the deposited data

How the results depend on the processing

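With 1 array per group nothing could be left out and no replicate spread exists, so a change is called a move here when it exceeds the SD of 0.40 between probe sets or 1.5 times a count. No paired analysis was possible because each group holds 1 array. The median of the 9 tight junction genes stayed below 0 in all 10 alternatives, from -0.41 to -0.19, and 0 members were 1.5-fold higher in any. The reported 2 lower members became 1 with the floor at the 60th percentile (Ocln), with a pseudocount of 50, with the median of the probe sets and with centring on the pan-epithelial markers (each Cldn6), 0 at 2-fold and 5 under the looser size rule. Among the other junction genes, the 2 lower became 5 after quantile normalization, 4 after loess, 1 with the floor at the 60th percentile or a pseudocount of 50, and 0 at 2-fold or with pan-epithelial centring. The 2 higher became 0 after quantile normalization or loess, with the floor at the 60th percentile, with a pseudocount of 50 and at 2-fold. Of the single values, Cldn6 moved to -0.47 under the highest floor and Cldn1 to -0.02 without x, s and a probe sets, which leave 7 of the 9 genes. The liver median moved to 1.49 with the floor at the 20th percentile or none. Pan-epithelial centring raised the median of all measured genes to 0.13, against -0.09 as reported, and left 3.52% of them 1.5-fold lower and 14.2% higher, against 9.71% and 6.32%. Signals near the floor, as for Cldn6, Cldn1 and Marveld2, carry the least weight.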
